A study of Mus musculus with 35 samples.

Results

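A set of 34 astrocyte genes was followed in the hypothalamus of mice that were fed or fasted and that differed in the clock gene Per2. The members were chosen by symbol, as genes known to be enriched in astrocytes. Earlier results of these data were known when they were chosen. All 34 were found among the 49568 genes of the count tables. RNA was sequenced from 35 male mice of strain B6/J, with 1 library per mouse, all collected at ZT16, where ZT counts hours from lights-on. Control mice had food freely available (n = 10) or were fasted for 16 h from ZT0 (n = 10). PER2-S662D mice carry a PER2 protein whose phosphorylated serine is replaced by aspartate, and they were fed (n = 5) or fasted for the same 16 h (n = 5). Mice labelled Per2 knockout were fasted only (n = 5). The sources used here give neither the age of the mice nor the promoter of the S662D allele.

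Astrocytes clear glutamate and GABA from synapses, convert glutamate to glutamine for neurons, buffer ions and water, store glycogen and form networks through gap junctions. Their end-feet cover blood vessels, and in the hypothalamus they sense nutrients and hormones and take part in the control of feeding. Several members are also expressed elsewhere: Glul, Clu, S100b, Mertk and Sox9 are known from other glia, ependyma, neurons or macrophages as well. In a tissue block, fewer cells of a type and less RNA per cell cannot be told apart.

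Depth was 17959586 to 37027342 counts per library, and all 34 members passed the filter on low counts, as did 18063 genes in all. The lowest count of any member in any library was 313. The hypothalamic peptide genes Avp, Oxt, Hcrt and Pmch were present in every library, at 136 to 327, 91.7 to 151, 55.1 to 132 and 59.0 to 144 CPM, that is, counts scaled to a common library size. Per2 was at 28.2 to 33.4 CPM in the libraries labelled Per2 knockout against 26.1 to 33.1 in fasted controls, so these counts show no loss of Per2 transcript, and the group is called by its label. In S662D mice Per2 fell by 0.59 when fed and by 0.55 when fasted on the log2 scale (adjusted p = 1.18e-07 and 6.80e-07, edgeR). Library numbers of controls 1 to 5, of controls 6 to 10, of the labelled knockout and of S662D mice form separate ranges, and the library numbers of S662D replicates 2, 3 and 4 of each feeding state end in an additional digit. For S662D and the labelled knockout, genotype and library range therefore cannot be told apart. Markers of choroid plexus, a tissue outside the hypothalamus, summed to 47.0 to 1607 CPM, with 5 libraries above 500.

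The members spanned a wide range of levels. Per exon length, as RPKM (CPM divided by the exon length in kilobases, mean of 35 libraries), Glul was highest at 507, followed by Aldoc at 340, Clu at 224, Atp1b2 at 178 and Slc6a11 at 170. Glul is glutamine synthetase, the enzyme that makes glutamine from glutamate, Aldoc is the brain aldolase of glycolysis, and Slc6a11 takes up GABA. Among the classical markers, the glutamate transporters Slc1a2 and Slc1a3 were at 95.1 and 55.5 RPKM, the connexin Gja1 at 75.3, the intermediate filament gene Gfap at 38.8, the water channel Aqp4 at 23.1 and the folate enzyme Aldh1l1 at 16.1. The lowest were the transcription factor Sox9 at 7.15, the engulfment receptor Mertk at 6.46 and the BMP receptor Bmpr1b at 3.79. The spread between mice of a group, as an SD of log2 CPM, was smallest for Clu (0.06) and largest for Htra1 (0.22), with a median over members of 0.11.

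**Figure D1:**
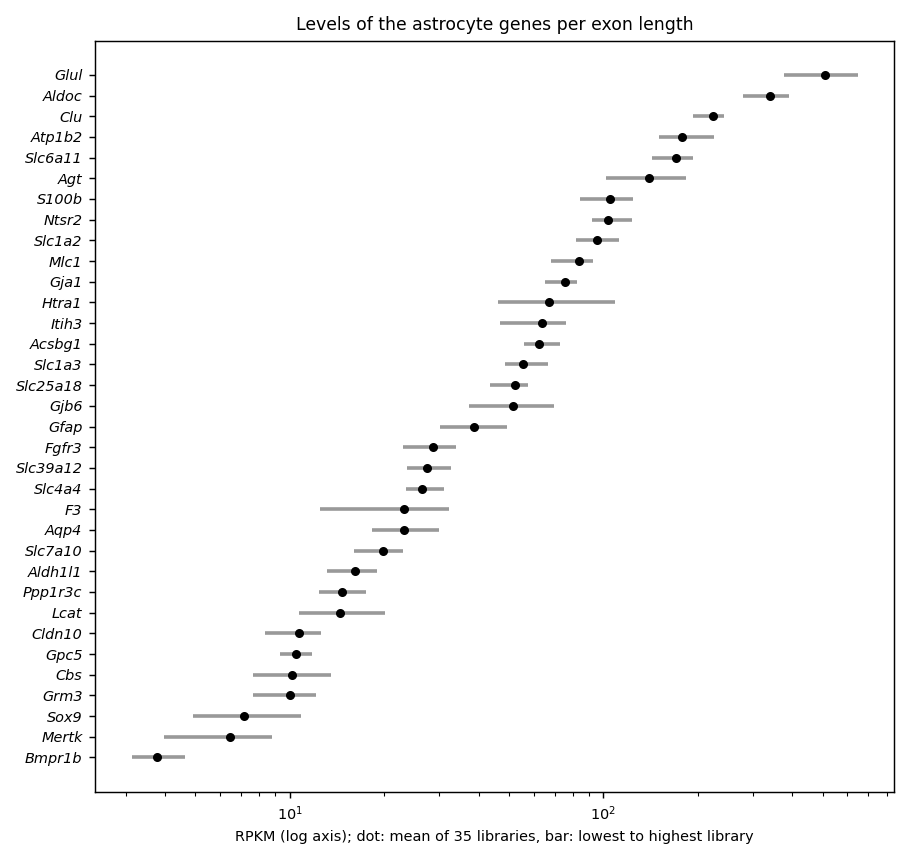
Mean level of each member in RPKM over 35 libraries (dots, log axis) with the lowest and highest library (bars). Glul is highest at 507 RPKM and Bmpr1b lowest at 3.79, and the bars of F3, Htra1 and Mertk are among the widest.

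In control mice, fasting changed 10 of 34 members, against 3.88% of all genes tested. Since the list was chosen with earlier results of these data known, the counts against all genes are a description and not independent evidence. A total of 8 rose, against 2.20% of all genes, and 2 fell, against 1.68%. The risers were the coagulation initiator F3, the receptor Mertk, the secreted protease Htra1, the connexin Gjb6, Glul, angiotensinogen (Agt), the transsulfuration enzyme Cbs and Aldh1l1. The water channel Aqp4 and the transcription factor Sox9 fell. The median log2 fold change of the 34 members was 0.02, against 0.002 for all genes, so the middle of the list lay near 0. At an unadjusted p below 0.05 there were 17 members, against 13.3% of all genes. In S662D mice 8 of 34 members were called, against 2.64% of all genes. Here 7 rose, against 1.80%, and 1 fell, against 0.830% (68.5% of all calls were higher, and 44.4% without scaling beyond library size), and the median of the list was 0.09. A total of 17 members had an unadjusted p below 0.05, against 14.3% of all genes. The 7 genes called in both genotypes make up 70% of the control calls and 87.5% of the S662D calls: F3, Mertk, Htra1, Gjb6, Glul and Aldh1l1 rose and Sox9 fell in each. The matching overlap over all genes called is not given here, so these shares are not read as particular to the members. The remaining 23 members were called in neither genotype.

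F3, Gjb6 and Glul are shown with the 250 bases before their start, because they rose in both genotypes and F3 rose most, Glul is the most abundant and Gjb6 encodes a connexin. The windows come from RefSeq (build GRCm38.p6), which held one for 30 of the 34 members, and lie at chr3:121723287-121723536 for F3 (plus strand), chr14:57133612-57133861 for Gjb6 (minus strand) and chr1:153899679-153899928 for Glul (plus strand). Capitals mark matches, on either strand, to GGGCGG, the core of the GC box, and to ACANNNTGT, a spaced palindrome of the kind bound by steroid receptors.
F3: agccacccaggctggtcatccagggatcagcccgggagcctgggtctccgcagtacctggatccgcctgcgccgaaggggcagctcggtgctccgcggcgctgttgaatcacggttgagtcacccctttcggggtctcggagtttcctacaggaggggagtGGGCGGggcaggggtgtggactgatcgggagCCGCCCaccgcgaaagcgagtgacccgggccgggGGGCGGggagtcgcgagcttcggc
Gjb6: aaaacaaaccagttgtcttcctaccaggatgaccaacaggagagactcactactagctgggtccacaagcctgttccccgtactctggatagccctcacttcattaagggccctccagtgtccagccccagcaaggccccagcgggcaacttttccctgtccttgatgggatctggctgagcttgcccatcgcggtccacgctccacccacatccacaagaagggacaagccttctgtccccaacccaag
Glul: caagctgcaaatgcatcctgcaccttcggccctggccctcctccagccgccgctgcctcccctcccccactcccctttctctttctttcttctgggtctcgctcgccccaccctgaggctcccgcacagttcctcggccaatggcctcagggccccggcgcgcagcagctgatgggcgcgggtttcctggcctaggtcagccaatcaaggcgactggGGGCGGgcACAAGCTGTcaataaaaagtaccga
The F3 window holds 3 GC boxes and 70.0% G and C, and the Glul window holds 1 GC box next to 1 ACANNNTGT match at 64.8%. The Gjb6 window holds neither motif, at 56.8%. Over the 32851 windows of all genes, 32.742% held GGGCGG and 5.835% held ACANNNTGT. The 30 members have 36 windows, of which 17 held GGGCGG and 4 held ACANNNTGT. Among the 6 genes that rose in both genotypes, 5 of 6 windows held GGGCGG and 1 held ACANNNTGT. The 6 windows held 56.8 to 70.0% G and C, against a median of 52.4% over all windows. The part of base composition in the GGGCGG count was not tested. None of these 6 held the TATA box core TATAAA (12.368% of all windows), the E-box CACGTG (6.021%) or the half-site AGAACA (16.085%). No motif overlapped another in the windows printed. A match describes the letters and is not a binding site.

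Among the glutamate-handling genes, Glul was the only 1 of 5 called on fasting in either genotype. Glul (chromosome 1, 153899944 to 153909723, plus strand, mm10) lay at 1250, 1490 and 1593 CPM (lowest, median and highest) in fed controls and at 1621, 1807 and 2036 in fasted controls. Every fasted control lay above every fed control. The rise was 0.30 ± 0.04 (SE) on the log2 scale, or 1.23-fold (adjusted p = 7.84e-06, edgeR). In S662D mice Glul was at 1357, 1295, 1307, 1374 and 1350 CPM in fed replicates 1 to 5 and at 1697, 2122, 2155, 1810 and 1870 in fasted ones. The groups did not overlap, and the log2 fold change was 0.53 ± 0.06 (adjusted p = 3.26e-07, edgeR). Counting every alignment of a read makes Glul uncertain, since 12.6% of its words of 50 bases are also found in other genes' transcripts, among them the pseudogene Glns-ps1 and the genes Teddm2 and Mir8114, which overlap the Glul locus.

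Slc1a2, the main glutamate transporter of the forebrain, had medians of 1250 CPM in fed and 1216 in fasted controls, with ranges of 1073 to 1377 and 1081 to 1400. These ranges overlapped almost entirely, and the log2 fold change was -0.01 with a 95% interval of -0.11 to 0.10. Slc1a3, the second astrocyte glutamate transporter, had medians of 457 and 472 CPM and a log2 fold change of 0.04 (interval -0.04 to 0.12). In S662D mice the fasting values were -0.02 for Slc1a2 and -0.04 for Slc1a3, neither called. The metabotropic glutamate receptor Grm3 was at -0.16 in controls and -0.19 in S662D mice (adjusted p = 0.132 and 0.232, edgeR), and the mitochondrial glutamate carrier Slc25a18 was not called either. The GABA transporter Slc6a11 and the neutral amino acid transporter Slc7a10 were called in neither genotype on fasting.

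The secreted and surface proteins held the gene with the largest rise. F3, tissue factor (chromosome 3, 121723537 to 121735048, plus strand, mm10), lay at 33.2, 39.5 and 48.8 CPM in fed controls and at 53.4, 74.9 and 79.0 in fasted controls. No fasted control came down to a fed value. The log2 fold change was 0.79 ± 0.07 (1.73-fold, adjusted p = 1.75e-09, edgeR). Fed S662D mice had 40.1, 31.5, 39.4, 37.0 and 40.8 CPM of F3 in replicates 1 to 5, and fasted S662D mice had 57.2, 81.1, 76.0, 68.8 and 68.7. Fasted replicate 1 was the lowest of its group and still above every fed library, and the log2 fold change was 0.90 ± 0.10 (adjusted p = 1.23e-07, edgeR). The libraries labelled Per2 knockout, all fasted, lay between 79.7 and 81.2 CPM, above every control library of either state.

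Htra1, a secreted serine protease (chromosome 7, 130936111 to 130985660, plus strand, mm10), lay at 135, 148 and 159 CPM in fed controls and at 148, 220 and 264 in fasted controls. The groups overlapped through fasted control 6, at 148 CPM, and fasted control 9, at 157. The log2 fold change was 0.52 ± 0.10 (adjusted p = 0.000686, edgeR). In S662D mice Htra1 was at 138, 138, 133, 155 and 138 CPM when fed and at 157, 312, 280, 224 and 224 when fasted. The groups did not overlap, although fasted replicate 1 lay within 2 CPM of the highest fed library, and the log2 fold change was 0.77 ± 0.14 (adjusted p = 0.000722, edgeR).

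Agt, the precursor of the angiotensin peptides (chromosome 8, 124556534 to 124569706, minus strand, mm10), lay at 214, 236 and 259 CPM in fed controls and at 240, 276 and 346 in fasted controls. These ranges overlapped, and the log2 fold change was 0.25 ± 0.06 (adjusted p = 0.00967, edgeR). In S662D mice it was 0.29 ± 0.08 and not called (adjusted p = 0.0613). The other 3 genes of this group did not pass the test on fasting in either genotype. The inter-alpha-trypsin inhibitor chain Itih3 came nearest, at 0.16 on the log2 scale in fasted against fed controls (adjusted p = 0.0506). The chaperone Clu was at -0.01 in controls and 0.03 in S662D mice. Gpc5, a heparan sulfate proteoglycan, had medians of 47.7 and 45.6 CPM in fed and fasted controls.

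Of the 3 junction genes, 1 was called on fasting. Gjb6, a gap junction connexin (chromosome 14, 57123303 to 57133611, minus strand, mm10) lay at 84.4, 91.7 and 103 CPM in fed controls and at 109, 137 and 148 in fasted controls. The groups did not overlap, and the log2 fold change was 0.49 ± 0.06 (adjusted p = 3.79e-07, edgeR). Fed S662D mice had 86.8, 87.4, 85.9, 99.9 and 91.3 CPM, and fasted ones 109, 158, 148, 132 and 122. The S662D groups did not overlap either, with a log2 fold change of 0.57 ± 0.08 (adjusted p = 2.05e-05, edgeR). Gja1, which encodes the other main astrocyte connexin (chromosome 10, 56377300 to 56390419, plus strand, mm10), had medians of 237 CPM in fed and 233 in fasted controls. Its log2 fold change was -0.04 (interval -0.12 to 0.03) in controls and 0.02 (interval -0.08 to 0.12) in S662D mice, and both intervals end below those of Gjb6. The tight junction gene Cldn10 was at -0.11 in controls and 0.23 in S662D mice, neither called.

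Mertk, a receptor tyrosine kinase for the engulfment of debris and synapses (chromosome 2, 128698956 to 128802894, plus strand, mm10), was the only 1 of 4 receptors called on fasting. It lay at 17.3, 20.4 and 27.9 CPM in fed controls and at 23.7, 34.1 and 38.0 in fasted controls. Fasted controls 6 and 9, at 26.0 and 23.7 CPM, fell within the fed range. The log2 fold change was 0.65 ± 0.09 (adjusted p = 8.12e-06, edgeR). In S662D mice Mertk was at 21.5, 21.1, 17.7, 24.4 and 19.0 CPM when fed and at 24.5, 35.6, 36.5, 30.7 and 35.3 when fasted. Fasted replicate 1 was nearly at the highest fed value, and the log2 fold change was 0.64 ± 0.13 (adjusted p = 0.00152, edgeR). Macrophages also express Mertk, and among 10 microglia markers none rose on fasting. In controls 2 of the 10 fell, Cx3cr1 (-0.41) and P2ry12 (-0.34), and all 10 log2 fold changes were negative. In S662D mice Cx3cr1 fell (-0.43), P2ry12 was at -0.26 and not called, and 6 of 10 were negative. The summed microglia markers ranged from 291 to 333 CPM in fed and from 243 to 341 in fasted controls, and their part in the Mertk result was not tested. The neurotensin receptor Ntsr2, the growth factor receptor Fgfr3 and Bmpr1b were not called, with log2 fold changes of 0.07, 0.12 and -0.002 in controls and 0.17, 0.15 and -0.07 in S662D mice. Fgfr3 and Slc7a10 are uncertain without strand, since 13.9% and 17.9% of their exon bases overlap an antisense gene.

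Of 6 metabolic enzymes, 2 rose in controls and 2 in S662D mice, and none fell. Aldh1l1, a folate enzyme used as a pan-astrocyte marker (chromosome 6, 90486427 to 90600203, plus strand, mm10), lay at 59.2, 67.1 and 69.3 CPM in fed controls and at 70.5, 75.8 and 83.4 in fasted controls. The groups did not overlap, and the rise was 0.20 ± 0.04 on the log2 scale (adjusted p = 0.000631, edgeR). In S662D mice Aldh1l1 was at 74.9, 70.5, 60.7, 69.2 and 74.4 CPM when fed and at 75.9, 83.4, 85.8, 73.7 and 79.8 when fasted. The groups overlapped through fasted replicate 4, and the log2 fold change of 0.19 ± 0.05 passed narrowly (adjusted p = 0.0450, edgeR), a call lost when fed replicate 2, 3 or 4 or fasted replicate 2, 3 or 5 was left out. The Aldh1l1 call in S662D mice was also lost without scaling beyond library size. A share of 13.4% of the Aldh1l1 exon bases overlaps other annotated genes, among them an antisense gene, so its counts are uncertain without strand.

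Cbs, the enzyme that commits homocysteine to cysteine synthesis (chromosome 17, 31612623 to 31637199, minus strand, mm10), lay at 25.5, 29.8 and 33.4 CPM in fed controls and at 29.4, 34.2 and 45.4 in fasted controls. These overlapped, and the log2 fold change was 0.25 ± 0.06 (adjusted p = 0.00788, edgeR). In S662D mice it was 0.27 and not called (adjusted p = 0.0814). Aldoc (chromosome 11, 78322968 to 78327781, plus strand, mm10) was called in S662D mice only, with 1037, 941, 925, 962 and 1028 CPM when fed and 1116, 1279, 1208, 1077 and 1113 when fasted. These groups did not overlap (log2 fold change 0.24 ± 0.06, adjusted p = 0.00559, edgeR). In controls the Aldoc log2 fold change was 0.09 (adjusted p = 0.255), and the test of the difference between genotypes gave 0.15 with an adjusted p of 0.771. The acyl-CoA synthetase Acsbg1, the glycogen-targeting subunit Ppp1r3c and the cholesterol-esterifying enzyme Lcat were called in neither genotype.

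Aqp4, the water channel of astrocyte end-feet, was 1 of 2 members that fell in controls. It lay at 122, 131 and 152 CPM in fed controls and at 92.9, 105 and 119 in fasted controls. No fasted control reached a fed value, and Aqp4 fell by 0.33 on the log2 scale, to 0.797-fold (adjusted p = 5.96e-06, edgeR). Fed S662D mice had 121, 143, 128, 115 and 133 CPM of Aqp4 and fasted ones 116, 109, 107, 128 and 99.6. The S662D groups overlapped, and the log2 fold change was -0.19 with an interval of -0.32 to -0.06 (adjusted p = 0.128, edgeR). The difference between genotypes was 0.13 with an interval of -0.03 to 0.30. The other 4 transport genes, for bicarbonate (Slc4a4), sodium and potassium (Atp1b2), zinc (Slc39a12) and the end-foot protein Mlc1, were called in neither genotype.

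Sox9, a transcription factor that specifies glia (chromosome 11, 112782224 to 112787760, plus strand, mm10), fell in both genotypes. It lay at 28.1, 30.8 and 36.7 CPM in fed controls and at 22.1, 25.4 and 29.2 in fasted controls. The groups overlapped slightly, and Sox9 fell by 0.32 (SE 0.06) on the log2 scale (adjusted p = 0.000680, edgeR). In S662D mice it was at 30.1, 44.8, 42.6, 40.5 and 34 CPM when fed and at 32.1, 27.6, 30.2, 29.8 and 30.0 when fasted. The fed libraries with the additional digit, replicates 2, 3 and 4, were the highest, and Sox9 fell by 0.36 (SE 0.09, adjusted p = 0.00801), a call lost without fed replicate 2. Gfap and S100b were called in neither genotype. Gfap lay at 127, 158 and 187 CPM in fed and at 146, 159 and 173 in fasted controls. Its log2 fold change was 0.01 with an interval of -0.13 to 0.14 in controls and 0.11 with an interval of -0.09 to 0.30 in S662D mice.

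**Figure D2:**
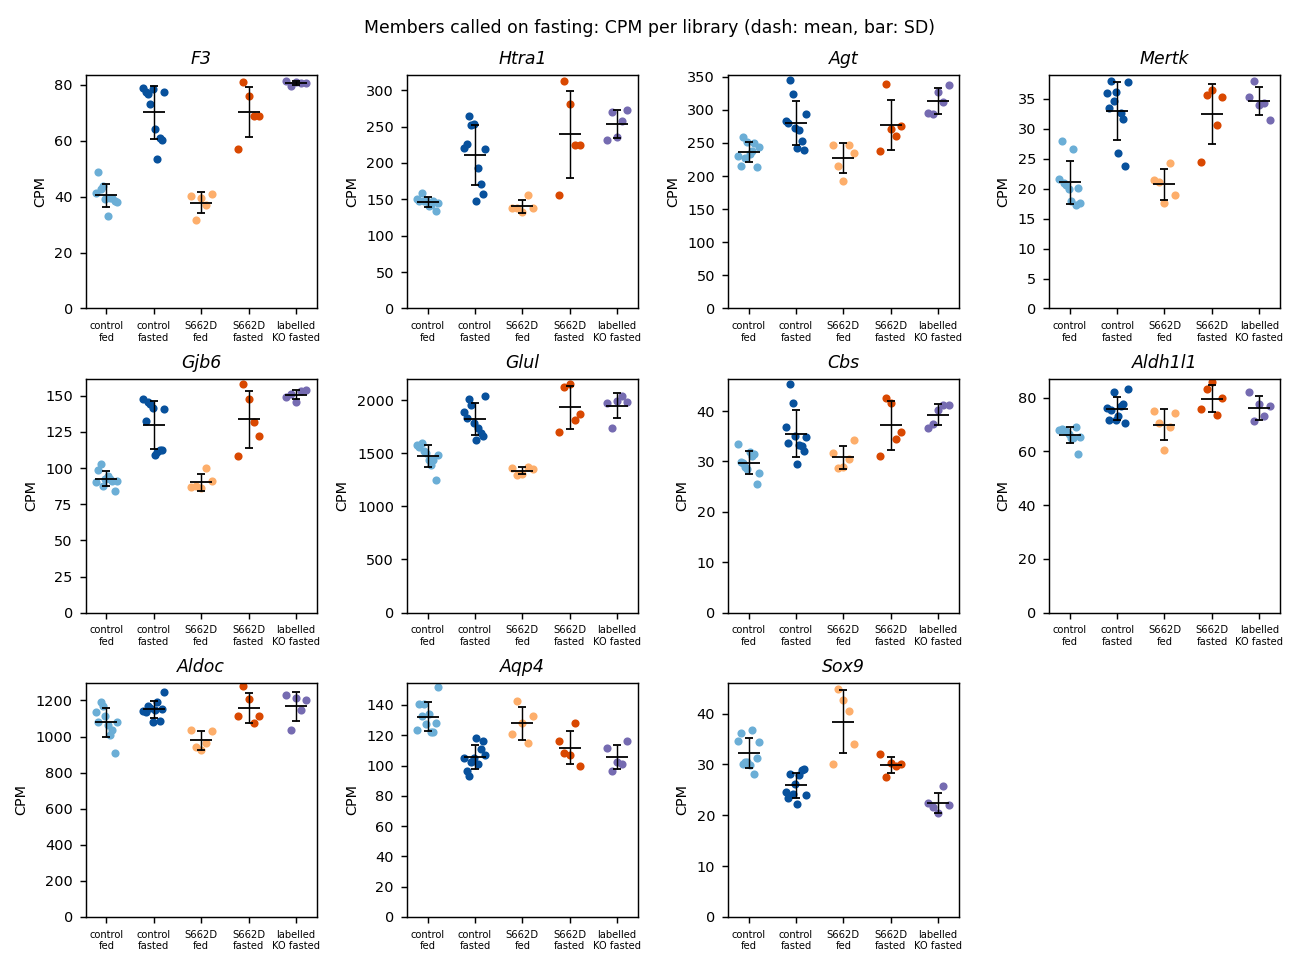
CPM per library of the 11 members called on fasting in at least 1 genotype, by group, with the mean (dash) and SD (bar); S662D is the PER2 mutant and KO the labelled Per2 knockout. Fasted controls lie above every fed control for F3, Gjb6, Glul and Aldh1l1 and below for Aqp4.

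**Figure D3:**
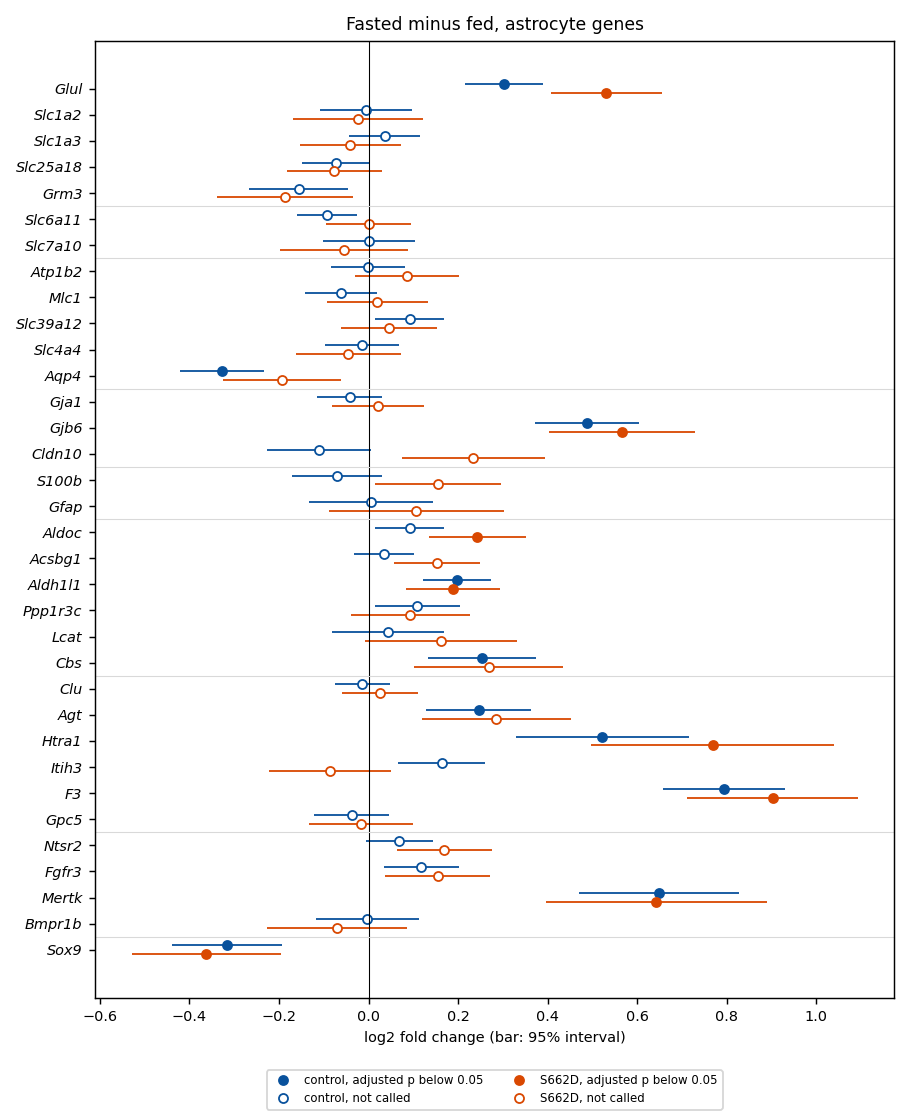
Log2 fold change of all 34 members on fasting in controls (blue) and S662D mice (orange), grouped by role, with 95% intervals; filled dots have an adjusted p below 0.05. F3 stands farthest to the right at 0.79 and 0.90, and Slc1a2, Slc1a3, Gja1 and Gfap lie near 0.

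The rises were larger in some mice than in others. Among the 8 members that rose in controls, fasted controls 6, 7, 8 and 9 were the 4 lowest of the 10 fasted controls for 7 members, Aldh1l1 being the exception. The same 4 were lowest for 26.7% of the other 389 genes that rose and for 3.85% of all genes tested. Fasted control 10, from the same range of library numbers, lay within or above the range of fasted controls 1 to 5 for F3, Mertk, Gjb6 and Glul. Gjb6 was at 133 to 148 CPM in fasted controls 1 to 5 and at 109 to 113 in 6 to 9, with 141 in control 10. Fasted S662D replicate 1 was the lowest of its group for 7 of the 8 members, against 69.4% of the other risers and 19.7% of all genes. This order was noticed after the values were seen, and no test is given for it. Fasted controls 8 and 9, but not 6 and 7, were among the 5 libraries above 500 CPM of choroid plexus markers. Mitochondrial genes held 6.81 to 6.93% of counts in fasted controls 6 to 9 and 7.27 to 8.70% in the other fasted controls. In fasted S662D replicate 1 they held 8.27%, the highest of its group. The part of either trait in the order was not tested.

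**Figure D4:**
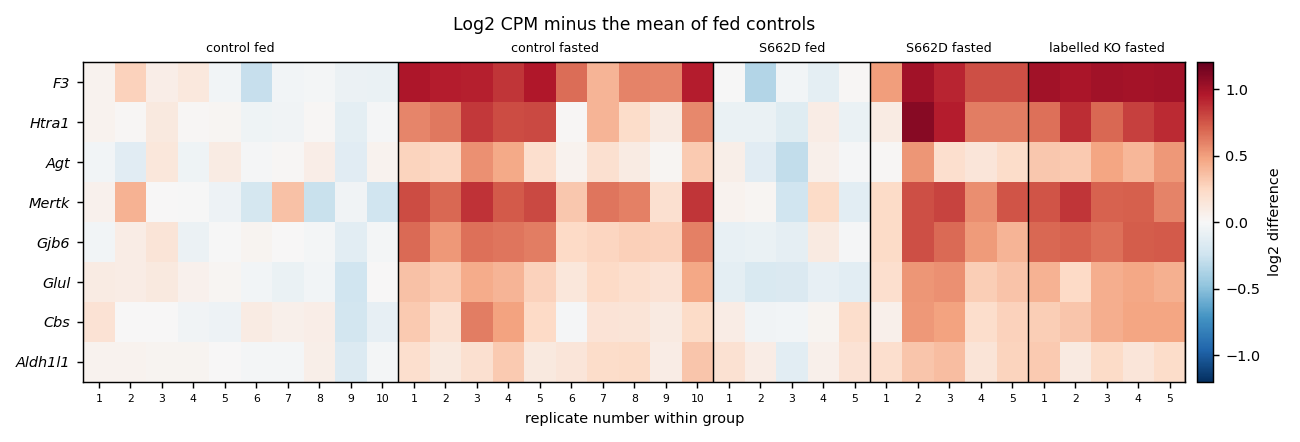
Log2 CPM minus the mean of fed controls for the 8 members that rose on fasting in controls, with 1 column per library in order of replicate number within each group (red higher, blue lower). Fasted controls 6 to 9 and fasted S662D replicate 1 are paler than the other fasted libraries of their group for all members but Aldh1l1.

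Within the sets of control libraries, the fasting values kept their direction. With controls 1 to 5 only, the log2 fold changes were 0.83 for F3, 0.69 for Htra1, 0.68 for Mertk, 0.59 for Gjb6, 0.35 for Cbs, 0.34 for Agt, 0.28 for Glul and 0.15 for Aldh1l1, the last not called, with -0.41 for Aqp4 and -0.36 for Sox9. With controls 6 to 10 only, they were 0.75 for F3, 0.61 for Mertk, 0.37 for Gjb6, 0.32 for Glul and 0.24 for Aldh1l1, all 5 called. Htra1 at 0.32, Agt and Cbs at 0.14 each, Aqp4 at -0.25 and Sox9 at -0.28 were then not called. Among fasted controls alone, 6 members differed between the sets, against 6.02% of all genes: Gjb6, Htra1, F3 and Ntsr2 were lower in replicates 6 to 10 than in 1 to 5 by log2 values of -0.28, -0.45, -0.28 and -0.15, and Slc25a18 and Mlc1 were higher by 0.16 and 0.17 (adjusted p = 0.0153 to 0.0470, edgeR). Among fed controls alone none of 34 was called between the sets, against 0% of all genes. Of the members, 8 had an unadjusted p below 0.05 there. The matching share of all genes is not given here, so that count is not read as a result about the members. In fed and fasted controls together none of 34 was called between the sets, against 0% of all genes, with 11 at an unadjusted p below 0.05 against 8.74% of all genes. The joint test averages the feeding states, so differences of opposite sign cancel in it.

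In S662D mice, the fasting values of the members called were larger in libraries with the additional digit (3 fed, 3 fasted) than in those without it (2 fed, 2 fasted). F3 was at 1.07 with the digit and 0.64 without, Htra1 at 0.94 and 0.46, Mertk at 0.70 and 0.57, Gjb6 at 0.68 and 0.38, and Glul at 0.61 and 0.40. Aldoc was at 0.33 and 0.11, Aldh1l1 at 0.27 and 0.06, and Sox9 at -0.55 and -0.04. With the 4 libraries without the digit, none of the 34 members was called, and fasted replicate 1 is 1 of these 4. That fit compared 2 fasted with 2 fed S662D libraries, and its share of all genes called is not given here. The count is therefore not read as a result about the members. The difference between the sets was not tested. Oligodendrocyte markers also moved on fasting in all S662D mice: 3 of 10 rose (Mobp 0.40, Mal 0.33, Cldn11 0.24), against 1.80% of all genes, and none fell. The sum of the 10 was 8050 to 9554 CPM in fed and 9689 to 10278 in fasted S662D mice, without overlap. Choroid plexus markers summed to 58.6 to 752 CPM in the fed and 47.0 to 337 in the fasted S662D libraries. The part of either in the member values was not tested.

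The test of the difference between the fasting responses of the genotypes called none of the 34 members, against 0% of all genes, with 5 members at an unadjusted p below 0.05 against 6.37% of all genes. These were Cldn10 (0.35), Itih3 (-0.25), Glul (0.23), S100b (0.23) and Aldoc (0.15), given as the S662D response minus the control response on the log2 scale, with adjusted p of 0.762 or more. Cldn10 was at 26.6, 24.3, 21.6, 22.9 and 31.4 CPM in fed and at 32.6, 30.8, 29.6, 27.1 and 28.8 in fasted S662D mice, against medians of 29.9 and 26.5 in fed and fasted controls. The F3 difference was 0.11 and the Gjb6 difference 0.08, both near 0. Against controls 1 to 5 only, S100b at 0.40 and Cldn10 at 0.47 were called (adjusted p = 0.0251 and 0.0252), while controls 6 to 10 alone gave 0.05 and 0.22, neither called.

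Between S662D and control mice in the fed state, 1 of 34 members was called, near the background of 4.69% of all genes. It was higher, against 3.12% of all genes, and none was lower, against 1.57%. At an unadjusted p below 0.05 there were 8 members, against 21.0% of all genes. Sox9 was higher in fed S662D mice, by 0.26 ± 0.07 on the log2 scale (adjusted p = 0.0337, edgeR), with the groups overlapping. In the libraries with the digit the Sox9 difference was 0.41, and in those without it -0.01, and the call was lost when control 3, 4, 5 or 8 or S662D 2, 3 or 4 was left out, while leaving out control 7 or 9 or S662D 1 or 5 gave 2, 4, 5 and 5 called members. S100b came next at -0.20 (adjusted p = 0.0550), Aldoc was at -0.14 and Glul at -0.14, none of them called. The classical markers lay near 0, with 0.06 for Slc1a2, 0.11 for Slc1a3, -0.05 for Gja1, 0.02 for Gfap, -0.05 for Aqp4 and 0.08 for Aldh1l1. Of 90 tested markers of other cell types, 6 were higher and 3 lower in fed S662D mice. Among them, 3 of 6 oligodendrocyte precursor markers were higher (Gpr17 0.38, Cspg4 0.40, Pdgfra 0.27), and of 10 endothelial and mural markers Cldn5 (0.31) and Flt1 (0.28) were higher and Ly6c1 (-0.38) was lower. The oligodendrocyte marker Mobp was lower (-0.21), and of 12 neuron markers Celf4 was higher (0.13). The precursor markers summed to 151 to 163 CPM in fed controls and to 179.8 to 207.6 in fed S662D mice, and the endothelial and mural markers to 293 to 334 and 302 to 355. The part of these markers in the member values was not tested.

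In the fasted state, 3 of 34 members were higher in S662D than in control mice and none was lower, against 3.35% and 2.23% of all genes and 5.57% in either direction. At an unadjusted p below 0.05 there were 8 members, against 20.8% of all genes. Of all 1007 genes called here 60.1% were higher, and without scaling beyond library size 25.3% were. Atp1b2, the beta subunit of the glial sodium pump (chromosome 11, 69599736 to 69605942, minus strand, mm10), lay at 666, 703 and 750 CPM in fasted controls and at 702, 919, 880, 870 and 742 in fasted S662D mice. Replicates 2, 3 and 4 exceeded every control and replicates 1 and 5 did not (0.22 ± 0.05, adjusted p = 0.00732, edgeR). Slc6a11, the GABA transporter (chromosome 6, 114131241 to 114249952, plus strand, mm10), lay at 734, 827 and 877 CPM in fasted controls and at 883, 965, 962, 943 and 842 in fasted S662D mice. The groups overlapped through S662D replicate 5 (0.16 ± 0.04, adjusted p = 0.0158, edgeR).

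Lcat, which esterifies cholesterol in lipoproteins (chromosome 8, 105939551 to 105943382, minus strand, mm10), lay at 17.3, 19.2 and 22.7 CPM in fasted controls and at 20.7, 25.4, 22.7, 27.0 and 19.0 in fasted S662D mice. The groups overlapped (0.25 ± 0.07, adjusted p = 0.0366, edgeR). In libraries with the digit the differences were 0.34 for Atp1b2, 0.22 for Slc6a11 and 0.38 for Lcat, and in those without it 0.04, 0.08 and 0.05. Leaving out S662D replicate 2 or 4 left none of the 3 called, and leaving out replicate 3 left 1. The Lcat call was also lost without fasted control 1, 2, 3 or 4. Without scaling beyond library size, the Slc6a11 and Lcat calls were lost and the Atp1b2 call was kept. The median over the 34 members was 0.04, against -0.003 for all genes. Of the 90 markers of other cell types, 6 (6.67%) were called in this comparison, against 5.57% of all genes, and all were higher. Of 6 oligodendrocyte precursor markers 3 were higher (Gpr17 0.35, Cspg4 0.38, C1ql1 0.31), with a summed level of 145 to 179 CPM in fasted controls and 165 to 214 in fasted S662D mice. Of 10 endothelial and mural markers 3 were higher (Cldn5 0.46, Flt1 0.37, Pecam1 0.28), with a median of 0.19 over the list and sums of 269 to 311 CPM in fasted controls and 274 to 371 in fasted S662D mice. The part of either list in the member values was not tested.

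**Figure D5:**
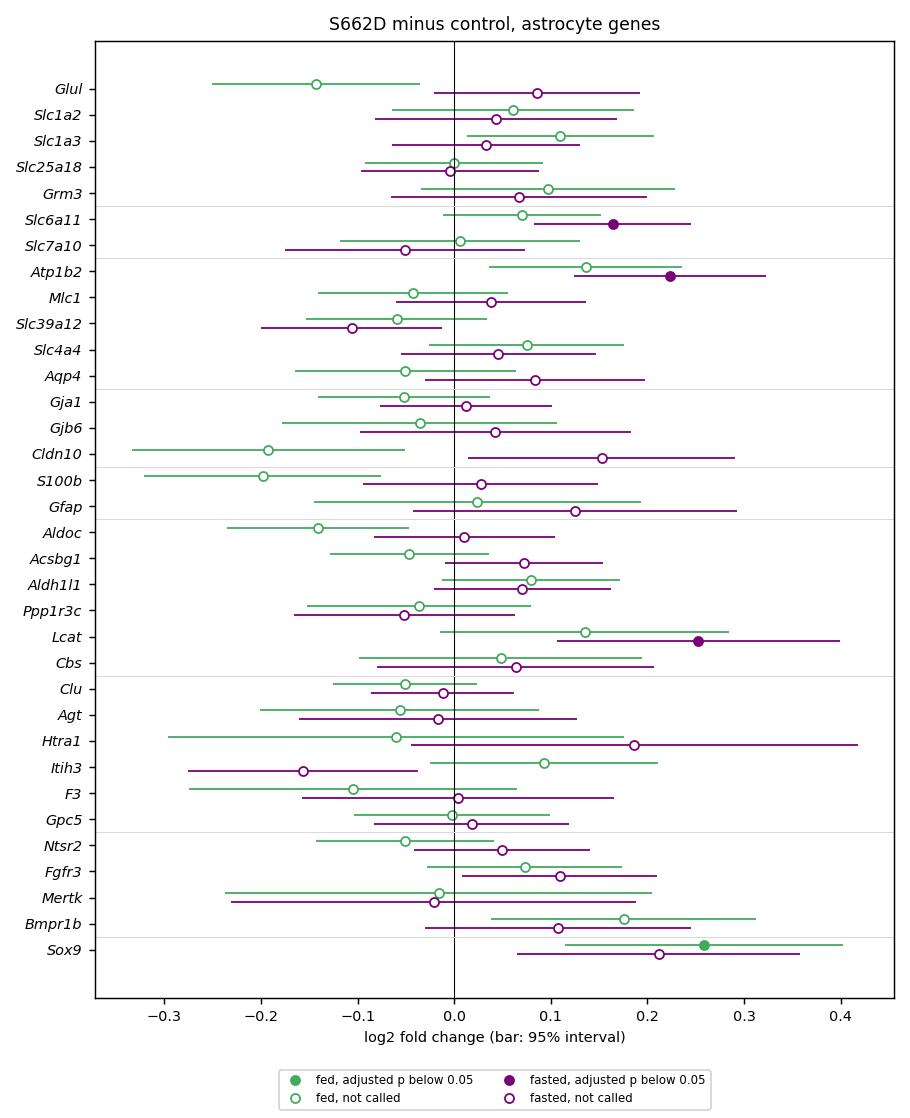
Log2 difference of S662D minus control for all 34 members in the fed (green) and fasted (purple) state, grouped by role, with 95% intervals; filled dots have an adjusted p below 0.05. The filled dots are Sox9 when fed and Slc6a11, Atp1b2 and Lcat when fasted.

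Between fasted mice labelled Per2 knockout and fasted controls, none of 34 members was called, against 0.0277% of all genes (0.00554% higher, 0.0221% lower). A total of 6 members had an unadjusted p below 0.05, against 6.07% of all genes: Gjb6 (0.22), F3 (0.20), Htra1 (0.27) and Agt (0.16) on the higher side and Sox9 (-0.20) and Lcat (-0.18) on the lower. Gjb6 was at 149, 151, 146, 153 and 154 CPM in the libraries labelled knockout, near or above the highest fasted control at 148. Against controls 1 to 5 the Gjb6 and F3 differences were 0.08 and 0.07, while controls 6 to 10 gave 0.37 and 0.35, which were called (adjusted p = 0.0189 and 0.0455, edgeR). The classical markers Slc1a2, Slc1a3, Aqp4 and Aldh1l1 lay between -0.01 and 0.01, with 0.06 for Gja1 and 0.12 for Gfap.

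A further list of 36 astrocyte genes, outside the 34, was read in the same fit. On fasting, 5 rose and 5 fell in controls, against 2.20% and 1.68% of all genes. In S662D mice 9 rose and 2 fell, against 1.80% and 0.830%. Sox2, a transcription factor of glial progenitors, fell from a range of 57.4 to 66.6 CPM to one of 42.5 to 51.1 in controls, without overlap, by 0.40 on the log2 scale, and by 0.58 in S662D mice (adjusted p = 1.91e-09 and 1.03e-09, edgeR). Etnppl, which degrades phosphoethanolamine, rose by 0.37 and 0.36, and Prodh, the first enzyme of proline breakdown, by 0.40 in each genotype. The Wnt receptor gene Fzd2 rose by 0.70 in controls and 0.72 in S662D mice, and Dio2, the deiodinase that activates thyroid hormone, rose by 0.50 and 0.70. Between S662D and control mice, 2 of the 36 were higher and 1 lower when fed, against 3.12% and 1.57% of all genes. When fasted, 4 were higher, against 3.35% of all genes, with Tril among the higher in each state (0.18 and 0.24).

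Of 12 genes known from reactive astrocytes, 8 passed the filter, and the single call was Hspb1, a small heat shock protein, which fell by 0.53 in fasted controls (adjusted p = 0.000900, edgeR). Of 17 genes that supply or use the transmitters astrocytes clear, 2 fell on fasting in controls, against 1.68% of all genes. These were the glycine transporter Slc6a9 (-0.18) and the glutamine transporter Slc38a5 (-0.75). Slc38a5 fell in S662D mice as well (-1.03), where 0.830% of all genes fell. In fasted S662D against fasted control mice 4 of the 17 were higher, against 3.35% of all genes. They were the vesicular GABA transporter Slc32a1 (0.23), the GABA-degrading enzyme Abat (0.15), Slc6a9 (0.21) and the glutamine transporter Slc38a1 (0.14).

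Of 90 tested markers of other cell types, 10 (11.1%) were called on fasting in controls, 4 higher and 6 lower, against 3.88% of all genes. In S662D mice 8 of the 90 (8.89%) were called, 6 higher and 2 lower, against 2.64%. Among the higher ones were Ly6c1 (0.40) of the endothelial and mural markers and Nefl (0.17) of the neuron markers. None of 12 neuron markers was called in controls, with a summed level of 6266 to 6570 CPM in fed and 6247 to 6712 in fasted controls. Of 10 oligodendrocyte markers Mobp rose (0.15) and Ermn fell (-0.27), and their sum was 8064 to 10768 CPM in fed and 8941 to 9980 in fasted controls. Of 10 markers of tanycytes, the ependymal glia that line the floor of the third ventricle, 1 fell: Nes, which fell by 0.60 in controls and fell by 0.56 in S662D mice on the log2 scale. Their sum was 91.4 to 115 CPM in fed and 91.9 to 111 in fasted controls. Of 10 endothelial and mural markers 2 fell (Cldn5 -0.43, Tek -0.42), with sums of 293 to 334 and 269 to 311 CPM. Of 6 oligodendrocyte precursor markers 2 rose (Neu4 0.24, Pdgfra 0.19), with sums of 151 to 163 CPM in fed and 145 to 179 in fasted controls. The 2 microglia markers that fell are given beside Mertk. Of 10 meningeal markers Col1a2 rose (0.33), with sums of 47.2 to 117 and 47.7 to 119.5 CPM. No ependymal, choroid plexus or pituitary marker was called. The 34 members summed to 9257 to 9950 CPM in fed and to 9740 to 10715 in fasted controls. The part of these markers in the member values was not tested. Without the 5 libraries above 500 CPM of choroid plexus markers, a setting chosen after seeing the data, the same 10 members were called on fasting in controls, 6 of the 8 in S662D mice, and none between fed S662D and fed control mice.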

How the data were processed

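PolyA RNA from hypothalamus blocks was sequenced as paired reads in 35 mice, per the labels' protocols. The authors deposited raw counts per gene: per the file headers, featureCounts 2.0.1 with GENCODE vM12 on mm10, counting every alignment of multi-mapping reads, without strand. STAR 2.7.10b is named in the submitters' processing notes. Groups came from the sample titles.

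Counts were filtered with filterByExpr (minimum count 10), scaled with TMM and fitted in 1 model over 35 libraries with edgeR 4.0.16 in R 4.3.3 (glmQLFit, robust, then glmQLFTest). P-values were Benjamini-Hochberg adjusted over 18063 genes, and a gene was called below 0.05. Errors are SE from the F statistic, intervals are 95%, CPM use TMM library sizes and RPKM the exon lengths in the tables. No libraries agreed within sampling noise. The fit was checked on simulated data with 200 changed genes. Log2 changes of 0.2 were recovered in 67% for fasting in controls and 13% for fasting in S662D mice. For S662D against control when fed it was 22.5%. Changes of 0.5 were recovered in 98.5 to 99%. False calls made up 3.4 to 8.2% of calls, most for changes of 0.2 on fasting in controls.

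The members, lists and naming rule were chosen with earlier results of these data known. Full values are given for called members (up to 8 per comparison, Cbs and Agt being added after their values were seen) and for Gfap, Aqp4, Aldh1l1, Slc1a2, Slc1a3 and Gja1. Other genes are named where called, at most 4 per list and comparison by smallest p. Grm3, Itih3, Clu, Gpc5 and other members that were not called were named after their values were seen. Alternatives were DESeq2 1.42.0, its size factors, no scaling, no filter, fits of fewer libraries or within library sets, a replicate block and leaving out each library.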

Additional observations from a re-analysis of the deposited data

Results flagged for a closer look

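In 170 combinations of member and group, 6 held a library whose gap to the others was unusually wide for the range of its group. Chance alone gives such a gap in about 1 of 20 groups. Fed control 9 had the lowest Aldh1l1 of its group at 59.2 CPM, with the next at 65.0. Fed control 7 had the highest Atp1b2 at 765 CPM, with the next at 722. Fasted S662D replicate 5 was low in Gja1 at 207 CPM, with the next at 235. Among libraries labelled Per2 knockout, replicate 2 was low in Glul at 1741 CPM, with the next at 1971, and replicate 4 was high in Slc4a4 at 297 CPM, with the next at 270.0. Fed S662D replicate 4 was high in Htra1 at 155 CPM, with the next at 138.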

How the results depend on the processing

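The fasting calls in controls numbered 10, and were 10 to 11 when any library was left out and 5 with controls 6 to 10 only. In S662D mice they numbered 8, were 6 to 12 when a library was left out, 0 without the additional digit and 13 with it. For S662D against control when fed (1 call), DESeq2 gave 3, controls 1 to 5 only 6, and libraries with the digit 7. The fit of only these groups, controls 6 to 10 only, libraries without the digit, the digit as a term and the fit without the 5 choroid-rich libraries each gave 0, and leaving out a library gave 0 to 5. The Sox9 difference there turned to -0.00816 without the digit. For S662D against control when fasted (3 calls), the fit of only these groups gave 1, libraries with the digit gave 6, and controls 6 to 10 only, libraries without the digit and the digit as a term each gave 0, with 0 to 4 when a library was left out. The interaction (0 calls) gave 2 with controls 1 to 5 only, the labelled knockout (0 calls) gave 2 with controls 6 to 10 only, and both gave 0 to 0 when a library was left out. Between the control sets (0 calls), DESeq2 gave 1, the fit of controls alone 3, fed controls alone 0 and fasted controls alone 6. The cause was not tested, except that within-set fits hold fewer libraries. The share of all genes called is not given beside these counts, so they are not read as results about the members.

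The replicate numbers were not taken to pair the mice, since in no comparison did every same-numbered pair correlate above 0.1: correlations of same-numbered deviations were -0.19 to 0.06 between fed and fasted controls and -0.11 to 0.16 between fed and fasted S662D mice, where 1 of 5 libraries correlated best with its own number. Between fed controls and fed S662D mice they were -0.05 to 0.24, above 0.1 in 3 of 5 pairs, and 3 of 5 libraries correlated best with their own number. With a replicate block the counts were 10, 7, 0, 3, 2 and 0 for fasting in controls, fasting in S662D, the interaction, S662D fed, S662D fasted and the labelled knockout. F3, Gjb6, Glul and Mertk stayed called on fasting in controls under all 29 alternatives. With 5 S662D mice per state, the SE of a member's log2 difference reached 0.17 for the interaction and 0.12 for S662D against control when fed, which limits what these comparisons can show.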

Other observations

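Sgk1, Fkbp5 and Tsc22d3, genes known to be induced by glucocorticoids, were looked up after the library order of the risen members had been seen. For each of the 3, fasted controls 6 to 9 were the 4 lowest fasted controls and fasted S662D replicate 1 was the lowest of its group, the order seen for 7 of the 8 risen members. For Sgk1 the order was close, with fasted control 6 at 254 CPM and fasted control 1 at 261. Among the 389 genes other than the members that rose on fasting in controls, the same 4 controls were lowest for 26.7%. For 69.4% of them, S662D replicate 1 was lowest. Fkbp5 was at 38.8, 58.7, 55.0 and 44.8 CPM in fasted controls 6, 7, 8 and 9, against 72.5 to 85.5 in the other fasted controls and 28.0 to 39.7 in fed controls. In fasted S662D replicates 1 to 5 it was at 39.3, 78.0, 78.4, 50.3 and 64.5 CPM. These values are a description, and no test is given.

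Markers of oligodendrocyte precursors, which are glia beside the astrocytes, were higher in S662D than in control mice in the fed state too. Gpr17 (0.38), Cspg4 (0.40) and Pdgfra (0.27) were called there among 6 markers (adjusted p = 0.000493, 0.0127 and 0.0149, edgeR), where 3.12% of all genes were higher.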
